A study of Arabidopsis thaliana with 18 samples.

Results

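The UDP-glycosyltransferase (UGT) genes described here are those whose symbol begins with UGT and a digit and which are the only annotated gene of an ATH1 probe set, other than UGT76C1 and UGT76C2, the cytokinin N-glucosyltransferases. They number 45, each with 1 probe set, of 13513 probe sets with 1 annotated gene and 22746 probe sets other than controls. The reference gene table lists 58 genes with such a symbol, and 3 UGT probe sets with several annotated genes were not used. UGTs move a sugar from a nucleotide sugar such as UDP-glucose onto a small molecule. In plants their acceptors include flavonols, monolignols, hydroxycinnamic acids, salicylate, auxin, abscisic acid and glucosinolate precursors, and the sugar usually makes the acceptor more soluble and ready for storage in the vacuole. Families are numbered by protein sequence, so that UGT72E1, UGT72E2 and UGT72E3 are close relatives, and members of a group can prefer different acceptors.

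The series measured RNA of GFP-positive protoplasts, sorted by flow cytometry from Arabidopsis thaliana roots of wild type Columbia, on 18 arrays. The ARR5::GFP group had 2 arrays of 6-day seedlings, sorted from the lower part of roots that were not dissected, and its tissue is labelled as procambium with lateral root cap. The BAP groups had 3 arrays per zone and came from ARR15::GFP seedlings of 8 days, which spent 6 days on standard medium and the last 48 h on medium that held BAP, a synthetic cytokinin, at 100 nM. The untreated groups were ARR15::GFP seedlings of 8 days with 3 cambium, 2 transition cambium and 2 procambium arrays. Both reporters send GFP to the endoplasmic reticulum. For the ARR15::GFP groups about 200 roots were cut into a basal segment (cambium), a middle segment (transition cambium) and an apical segment (procambium). ARR5 and ARR15 are type-A response regulators that cytokinin switches on, so BAP could also change which cells carry enough GFP to be sorted.

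Values are log2 signals, and their lowest value is 2.17 on every array. Between 47.2% and 49.9% of probe sets reached log2 5 on an array, and arrays of a group correlated with each other at r = 0.92 to 0.975 over all probe sets. ARR15 itself read 5.32 to 7.66 on the BAP arrays and 2.51 to 3.12 on the untreated ARR15::GFP arrays. Of the 9 cambium and procambium regulators listed, 5 have a probe set. With BAP, PHV, CLE41, CLE44 and MOL1 were higher in cambium than in procambium, and without BAP LHW, CLE41, CLE44 and MOL1 were. The root cap gene RCPG read 13.81 and 14.21 on the ARR5::GFP arrays, 10.34, 11.50 and 11.00 on the BAP procambium arrays, and 2.94 and 3.75 on the untreated procambium arrays. EXPA7, a root hair gene of the epidermis, read 9.75 and 7.67 on the ARR5::GFP arrays, 2.39, 5.78 and 7.37 on the BAP procambium arrays, and 2.64 and 3.01 on the untreated procambium arrays. PEP, a gene of the cortex, read 2.20 on each ARR5::GFP array, 3.57, 2.29 and 3.34 on the BAP procambium arrays, 8.27, 2.50 and 2.78 on the untreated cambium arrays, and 5.42 and 6.58 on the untreated procambium arrays. Of these groups ARR5::GFP cells differed from untreated procambium (-3.80, adjusted p = 0.0296), and 1 untreated cambium array stood above the rest. CO2, the other cortex gene listed, read 2.17 on each untreated procambium array and at most 3.44 on any array. The mean over the 4 photosynthesis genes listed ran from 7.25 to 8.92 on BAP cambium arrays, from 8.73 to 11.18 on untreated cambium arrays, from 5.04 to 5.58 on BAP procambium arrays and from 4.69 to 5.57 on untreated procambium arrays. The part of these other cells in the results below was not tested. In sorted bulk samples, fewer cells of a type and less RNA per cell cannot be told apart.

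Of the 45 UGT genes, 28 reached log2 5 on at least 2 arrays and were tested. The other 17 were UGT71B6, UGT71B8, UGT72B3, UGT73C1, UGT73C2, UGT74F1, UGT76E1, UGT76E11, UGT76E12, UGT78D3, UGT84A1, UGT84A3, UGT84B1, UGT84B2, UGT85A3, UGT85A5 and UGT85A7. Their highest value on any array was 4.87, that of UGT74F1, and 5 of them lay within 0.1 of the lowest value on every array. Just inside the filter, UGT73C7 reached log2 5 on 3 arrays, with a highest value of 6.21. The tested members included 7 of the 9 genes of family 71, 5 of the 7 of family 73 and 3 of the 4 of family 72, but only 1 of the 5 of family 84 and 2 of the 5 of family 85.

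Of the 28 genes tested, 25 were called in at least 1 comparison (limma, Benjamini-Hochberg adjusted p below 0.05 over all probe sets kept), 22 of them in a comparison of zones. Of all 13202 probe sets, 77.2% were called in at least 1 comparison and 55.1% in a comparison of zones. In cambium against procambium without BAP, 5 UGT genes were higher and 11 lower, so 16 of 28 (57.1%) were called, beside 35.8% of all 13202 probe sets (18.4% higher and 17.4% lower). In BAP-treated roots 9 were higher and 7 lower in cambium than in procambium, again 57.1% of members, beside 31.0% of all probe sets (16.3% higher and 14.7% lower). Transition cambium against procambium gave 6 higher and 8 lower without BAP (50.0%, beside 28.2% of all probe sets, 15.6% higher and 12.5% lower). With BAP it gave 9 higher and 5 lower (50.0%, beside 29.3%, 15.7% higher and 13.5% lower). Cambium against transition cambium gave 0 called members in limma, beside 0.757% of all probe sets without BAP (0.598% higher and 0.159% lower) and 1.26% with BAP (0.598% higher and 0.667% lower). An unadjusted p below 0.05 was found for 2 members without BAP and for 3 with BAP. The median difference over the 28 members in cambium against procambium was -0.93 without BAP and -0.49 with BAP, beside -0.01 and 0.08 over all probe sets. A gene that passed the filter only in the group where it is high had to differ, so these counts describe the members and say nothing about the family against other genes. The cambium and procambium arrays with BAP are not those without BAP, and 10 genes were called in both comparisons, 62.5% of each list. Of all probe sets, 2334 were called in both, 49.4% of the list without BAP and 56.9% of the list with BAP. The direction was the same for 9 of the 10 members, and UGT84A4 turned, beside 96.1% with the same direction among the 2334.

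**Figure D1:**
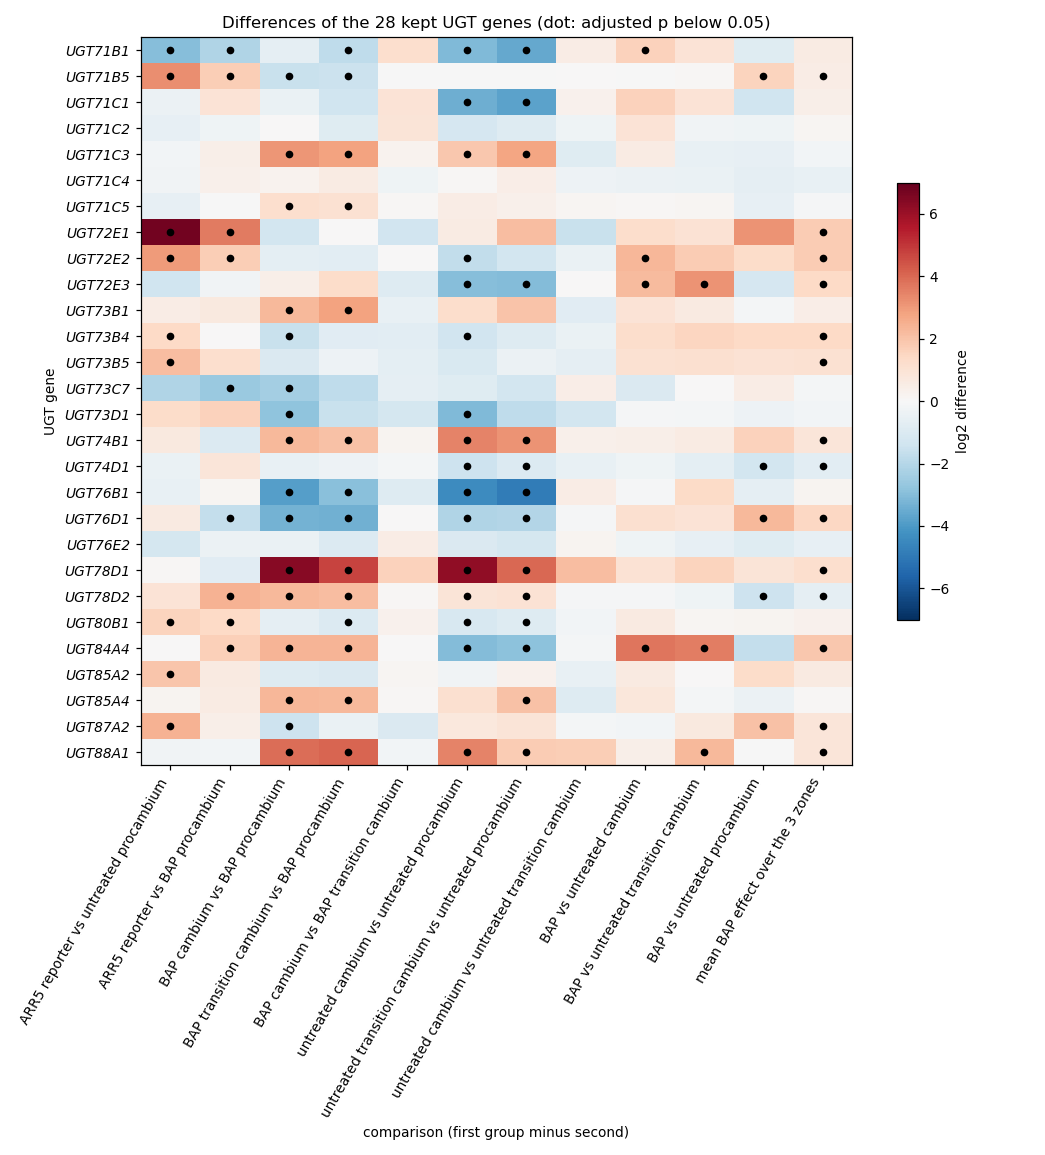
Log2 difference (colour, first group minus second) of the 28 tested UGT genes, one row each, in 12 comparisons; a dot marks an adjusted p below 0.05. Dots are dense in the columns of cambium and transition cambium against procambium, and absent from the 2 columns of cambium against transition cambium.

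Among genes of flavonol glycosylation, UGT78D1 (AT1G30530), which adds rhamnose to the 3-hydroxyl of flavonols, had a graded signal along the root. Its signal was 10.03, 10.25 and 9.75 in BAP cambium, 8.67, 7.93 and 8.51 in BAP transition cambium, and 5.17, 2.91 and 2.91 in BAP procambium. Without BAP it was 9.22, 9.04 and 8.68 in cambium, 6.88 and 6.73 in transition cambium, and 2.91 and 2.63 in procambium. The zones did not overlap within either treatment, and the ARR5::GFP arrays, at 3.14 and 2.55, were below log2 5 like those of untreated procambium. Untreated cambium was at least 15.8-fold and untreated transition cambium at least 3.5-fold above untreated procambium (adjusted p = 1.37e-06 and 0.000195). In the BAP groups the differences from procambium were 6.35 ± 0.47 and 4.71 ± 0.47 (SE), with 1 of 3 procambium arrays at log2 5 (adjusted p = 3.65e-07 and 6.39e-06). Without that array, replicate 1, they were 7.10 and 5.47. The step between cambium and transition cambium was called only when BAP procambium replicate 1 was left out, with a difference of 1.64 with BAP and 2.17 without (adjusted p = 0.0055 and 0.00395).

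Averaged over the zones, UGT78D1 was 1.17 ± 0.29 higher with BAP (SE, adjusted p = 0.00807), and this call held without any 1 array. Every BAP array was above every untreated array in cambium and in transition cambium, though neither zone passed on its own (adjusted p = 0.154 and 0.0767). Both zones passed without BAP procambium replicate 1, the array whose UGT78D1 signal of 5.17 stood apart (adjusted p = 0.0161 and 0.00436), and in fits of the compared groups alone (0.0347 and 0.0434).

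UGT78D2 (AT5G17050), the flavonoid 3-O-glucosyltransferase, was lower in procambium than in the other zones of BAP-treated roots. It read 8.76, 8.90 and 8.69 in BAP cambium, 8.83, 8.22 and 8.99 in BAP transition cambium, and 6.15, 7.06 and 6.37 in BAP procambium. No procambium array reached the other zones, and the differences were 2.26 ± 0.28 for cambium and 2.15 ± 0.28 for transition cambium (SE, adjusted p = 2.81e-05 and 5.92e-05). Without BAP the cambium difference was 0.91 (adjusted p = 0.0364), and it was lost without any of the 3 untreated cambium arrays or untreated procambium replicate 2 (0.0559 to 0.293). Untreated procambium read 8.32 and 7.63, so that BAP procambium was 2.73-fold lower (adjusted p = 0.00641, and 0.0974 without untreated procambium replicate 1). The signal in ARR5::GFP cells, 9.82 and 8.08, was 5.35-fold above BAP procambium (adjusted p = 0.000493) without overlap, and 2.92-fold or 9.80-fold above it without ARR5::GFP replicate 1 or 2. UGT78D3, a flavonol arabinosyltransferase, stayed below log2 5 throughout. CHIL, a chalcone isomerase-like protein, was the only one of 14 flavonoid genes listed that was kept. In procambium it was lower with BAP, like UGT78D2, at 6.38, 5.81 and 5.81, against 7.80 and 7.85 without (adjusted p = 0.00202). Its order of zones was not that of UGT78D2. Without BAP, CHIL was lower in cambium and transition cambium than in procambium (-1.82 and -1.19, limma adjusted p = 0.000944 and 0.0272). With BAP, CHIL was called in neither comparison (0.33 and -0.10, limma adjusted p = 0.449 and 0.839).

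**Figure D2:**
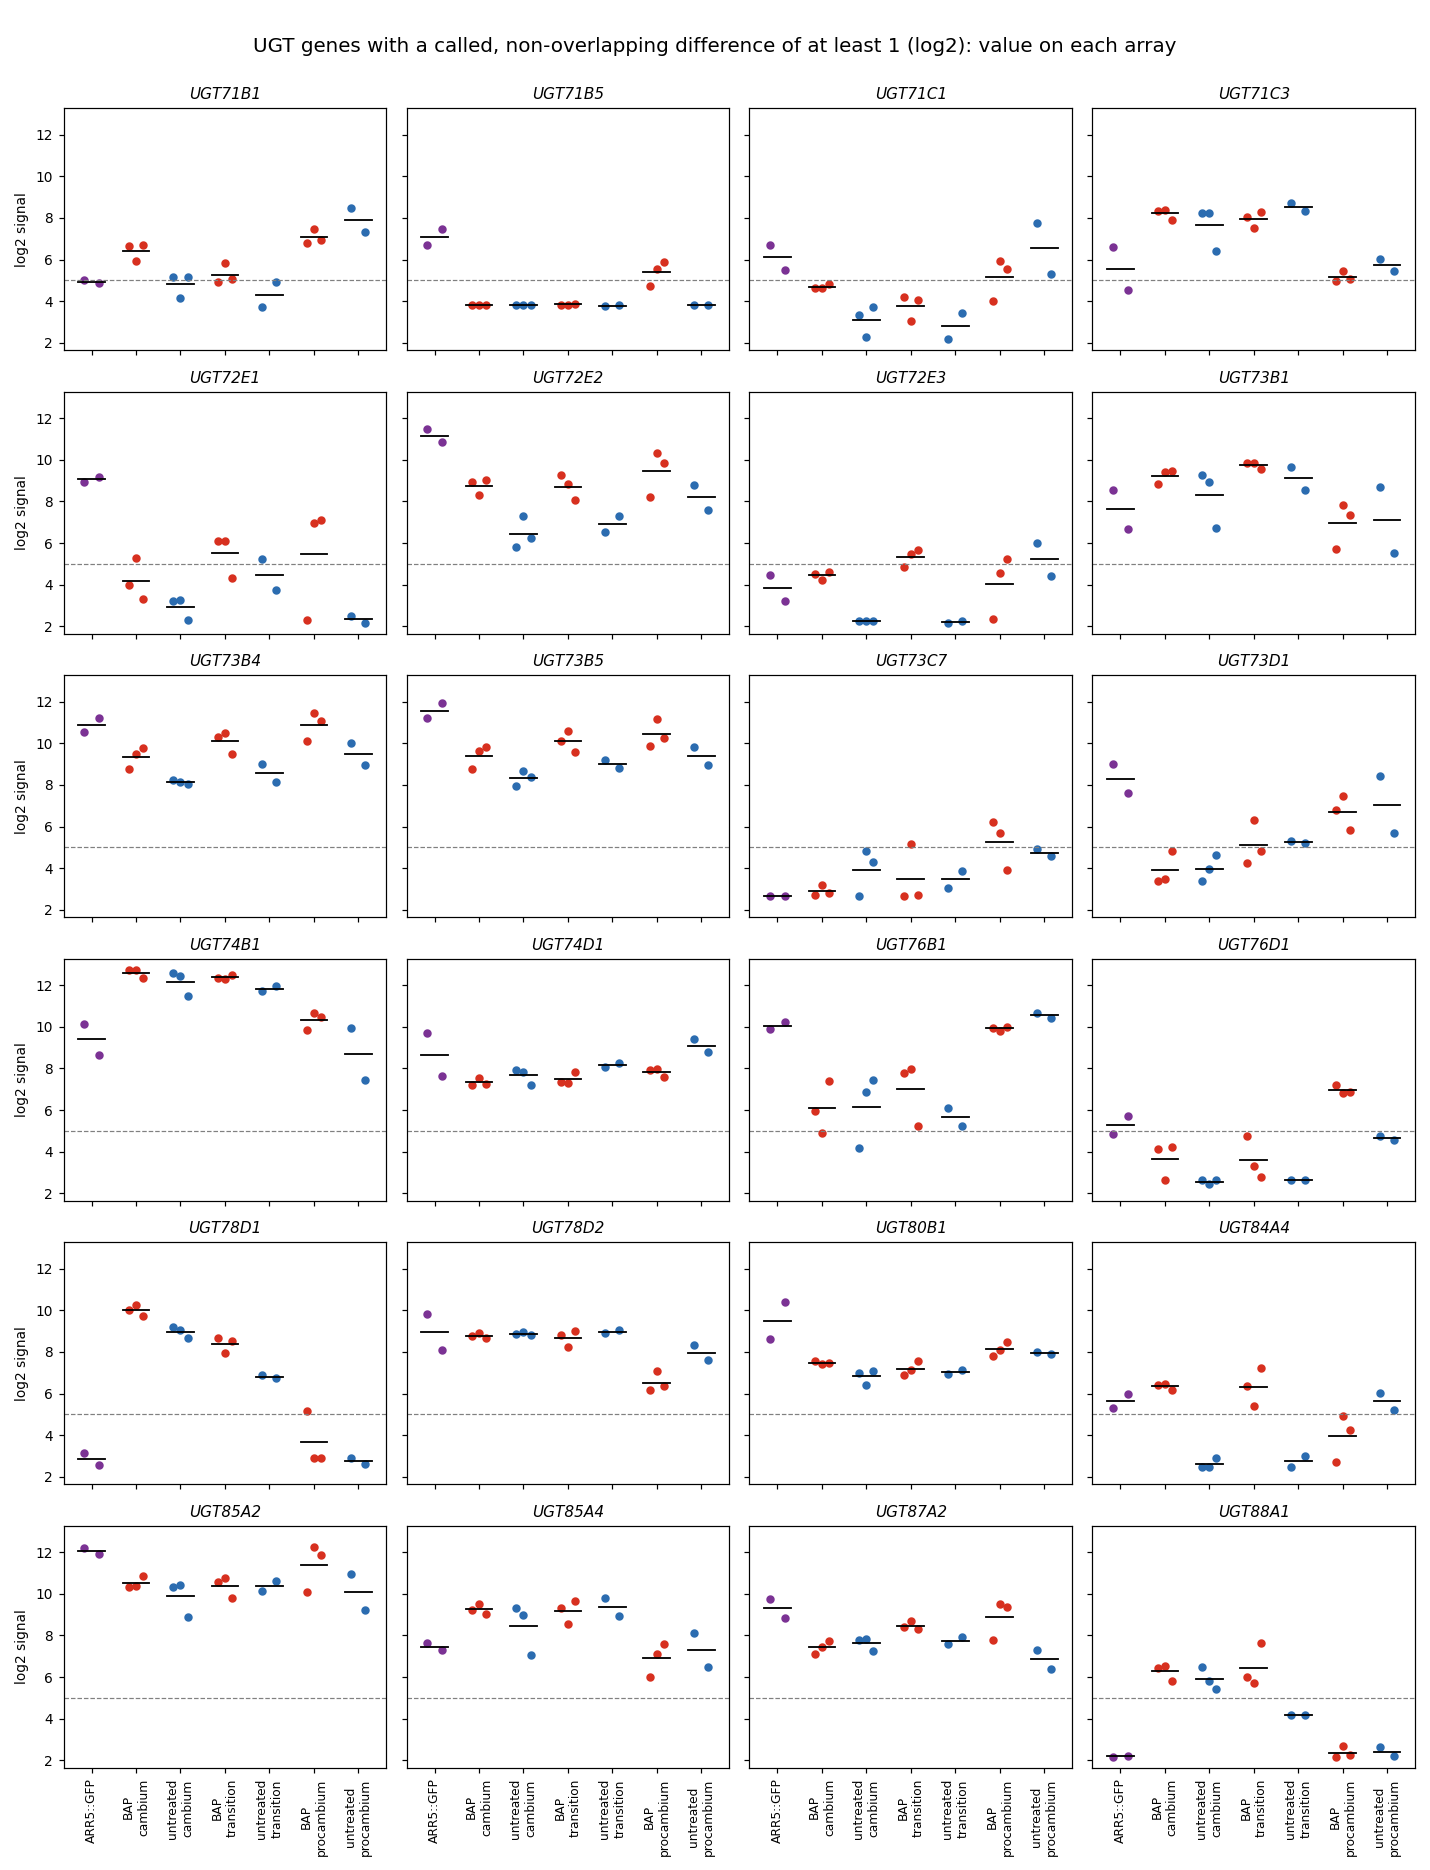
Log2 signal on each array (points) and group mean (black bar) of the 24 UGT genes with a called difference of at least 1 between groups that do not overlap; the dashed line is log2 5, the ARR5::GFP group is purple, BAP groups are red and untreated groups blue. UGT78D1 steps down from cambium to procambium with and without BAP, while UGT76B1 is highest in procambium and ARR5::GFP cells.

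In the phenylpropanoid branch, UGT84A4 (AT4G15500), of a group that joins hydroxycinnamic acids to glucose as esters, had the largest zone-dependent response to BAP among the members tested. It read 6.43, 6.44 and 6.18 in BAP cambium, against 2.45, 2.45 and 2.88 in untreated cambium. In transition cambium it read 6.38, 5.39 and 7.24 with BAP, against 2.49 and 3.00 without. In procambium it read 2.70, 4.94 and 4.26 with BAP, against 6.02 and 5.23 without. The groups did not overlap in any zone, and the order of BAP and untreated arrays in procambium was the opposite of that in both other zones. BAP cambium was at least 2.55-fold and BAP transition cambium at least 2.52-fold above the untreated zone (adjusted p = 0.000409 and 0.00175). The procambium difference of -1.66 ± 0.60 (SE) did not pass (adjusted p = 0.0804), but did without BAP procambium replicate 2 (-2.14, adjusted p = 0.0324).

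The BAP effect on UGT84A4 differed between the zones by limma's F test (adjusted p = 0.00141), which called 2 of 28 members (7.14%), beside 7.57% of all probe sets. That call held without any 1 array. The zone order of UGT84A4 turned with the treatment. Cambium was at least 2.55-fold above procambium with BAP (adjusted p = 0.00312), and procambium was at least 1.54-fold above cambium without BAP (adjusted p = 0.00138). The ARR5::GFP arrays, at 5.33 and 5.98, lay in the range of untreated procambium and above all BAP procambium arrays. That last difference was at least 1.57-fold (adjusted p = 0.0376), but was lost without either ARR5::GFP array or without BAP procambium replicate 1 (adjusted p = 0.0582 to 0.228). Its relatives UGT84A1 and UGT84A3, which lie beside it, were not tested.

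UGT72E3 (AT5G26310), a glucosyltransferase of monolignols, the alcohols from which lignin is built, was the other member called by the F test (adjusted p = 0.0199). Its signal was 4.53, 4.24 and 4.59 in BAP cambium, against 2.23 on each untreated cambium array. In transition cambium it was 4.85, 5.47 and 5.69 with BAP, against 2.17 and 2.23 without. In procambium it was 2.36, 4.55 and 5.24 with BAP, against 6.02 and 4.43 without, and here the groups overlapped. BAP transition cambium was at least 1.26-fold above the untreated zone (adjusted p = 0.00844), a call lost without either untreated transition cambium array (0.0552 and 0.0615). The cambium difference of 2.22 has no fold, since all its arrays were below log2 5 (adjusted p = 0.0215). It was lost without untreated cambium replicate 1 or 3 or BAP cambium replicate 1 or 3 (0.0514 to 0.0693). The F test itself was lost without untreated procambium replicate 1, the array with 6.02 (adjusted p = 0.123).

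UGT72E2 (AT5G66690), the main coniferyl and sinapyl alcohol glucosyltransferase of this trio, rose with BAP in cambium and in the mean over the zones. It read 8.92, 8.31 and 9.04 in BAP cambium, against 5.79, 7.31 and 6.25 in untreated cambium, without overlap, a 4.96-fold difference (adjusted p = 0.0112). Averaged over zones the BAP effect was 1.79 ± 0.34 (SE, adjusted p = 0.00121), and both calls held without any 1 array. In transition cambium and in procambium BAP against untreated was not called with all arrays. Both zones passed without BAP procambium replicate 1 (1.79 and 1.90, limma adjusted p = 0.035 and 0.0332). The signal in ARR5::GFP cells, 11.49 and 10.85, was above that of untreated procambium (8.79 and 7.59) by 7.88-fold (adjusted p = 0.00248), and by 12.0-fold or 5.19-fold without untreated procambium replicate 1 or 2.

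UGT72E1 (AT3G50740), which also glucosylates monolignols and coniferyl aldehyde, was brightest in ARR5::GFP cells. It read 8.96 and 9.19 there and 2.51 and 2.17 in untreated procambium, at least 16.9-fold apart (adjusted p = 0.00047). BAP procambium was split, with 2.31 on replicate 1 and 6.96 and 7.13 on the other arrays, and BAP against untreated procambium gave 3.13 ± 1.12 (SE, adjusted p = 0.0802). Without BAP procambium replicate 1 that difference was 4.71 (adjusted p = 0.00064). EXPA7 was split over the same arrays, at 2.39 on replicate 1 and 5.78 and 7.37 on the others, and RCPG, at 10.34, 11.50 and 11.00, was high on all 3 arrays. The part of these cells in the UGT72E1 signal was not tested. Of the 19 phenylpropanoid genes listed, 2 were measured. HCT, a hydroxycinnamoyltransferase, passed in transition cambium against procambium with BAP only (1.22, adjusted p = 0.00501). CCR2, a cinnamoyl-CoA reductase, was higher in cambium than in procambium with BAP (4.64, adjusted p = 9.72e-07) and without (2.54, adjusted p = 0.000526).

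UGT71C1 (AT2G29750) was lower in untreated transition cambium, at 2.19 and 3.42, than in untreated procambium, at 7.78 and 5.31, by at least 2.91-fold (adjusted p = 0.00307). That bound was 1.24-fold without untreated procambium replicate 1 and 6.85-fold without replicate 2. Untreated cambium read 3.34, 2.27 and 3.70, also without overlap, and that call was lost without untreated procambium replicate 1 (adjusted p = 0.00213 with it and 0.0508 without). With BAP, cambium read 4.65, 4.64 and 4.82 and procambium 4.03, 5.94 and 5.55, and these groups overlapped. Among the ARR15::GFP arrays only those of procambium reached log2 5, so UGT71C1 passed the filter through the zone where it was high. The p-values of comparisons with procambium carry this choice.

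In glucosinolate synthesis, UGT74B1 (AT1G24100), the S-glucosyltransferase that makes desulfoglucosinolates, was higher in cambium and transition cambium than in procambium. It read 12.74, 12.75 and 12.34 in BAP cambium, 12.35, 12.32 and 12.51 in BAP transition cambium, and 9.84, 10.65 and 10.49 in BAP procambium. Untreated cambium read 12.61, 12.43 and 11.49, untreated transition cambium 11.74 and 11.95, and untreated procambium 9.96 and 7.45. Procambium was below both other zones on every array. With BAP cambium was 4.87-fold above procambium, and without BAP it was 11.1-fold above (adjusted p = 0.0017 and 0.000191), and both calls held without any 1 array. The second of these folds rests on 2 procambium arrays that lay far apart, and it was 26.5-fold without untreated procambium replicate 1 and 4.66-fold without replicate 2. BCAT4, the aminotransferase at the start of methionine chain elongation and the only one of 18 glucosinolate genes listed that was measured, differed in the same direction. It read 6.10, 9.93 and 6.06 in BAP cambium and 2.17 on every BAP procambium array, and 10.47, 9.83 and 11.72 in untreated cambium against 2.71 and 2.17 in untreated procambium (adjusted p = 0.000683 with BAP and 5.22e-05 without). With BAP, BCAT4 was lower in cambium (adjusted p = 0.0298), while UGT74B1 there did not pass (0.43, adjusted p = 0.57). In procambium the BAP effect on UGT74B1 was 1.62 ± 0.52 (SE, adjusted p = 0.0518), with overlap. It passed with quantile normalization (0.0447) and without untreated cambium replicate 3 (0.0429) or BAP procambium replicate 1 (0.0443). Without untreated procambium replicate 1 the difference was 2.88. That run left 1 untreated procambium array, at 7.45, and so no spread for that group. The F test, with an adjusted p of 0.495 over all arrays, called UGT74B1 in that run only.

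Among genes of salicylate and related defence compounds, UGT76B1 (AT3G11340), which glucosylates isoleucic acid, salicylate and N-hydroxypipecolate, was, of the members tested, the one furthest below procambium in cambium. It read 5.96, 4.90 and 7.39 in BAP cambium, 7.80, 7.95 and 5.25 in BAP transition cambium, and 9.96, 9.82 and 10.01 in BAP procambium. Without BAP it read 4.16, 6.88 and 7.47 in cambium, 6.10 and 5.21 in transition cambium, and 10.68 and 10.42 in procambium. Procambium arrays lay within a narrow range and above every array of the other zones, whose arrays were spread. Cambium was 14.4-fold lower with BAP and 20.8-fold lower without (adjusted p = 0.0025 and 0.00232), with 2 of 3 cambium arrays at log2 5 in each case. Without BAP cambium replicate 2 or 3 the first fold was 9.56 or 22.6, and without untreated cambium replicate 1 or 3 the second was 10.4 or 32.6. Transition cambium was 29.7-fold lower without BAP (adjusted p = 0.00281) and 7.6-fold lower with BAP (adjusted p = 0.0157). Without BAP transition cambium replicate 3 it was 4.14-fold lower (adjusted p = 0.0914). The ARR5::GFP arrays, at 9.88 and 10.23, were in the range of procambium.

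UGT76D1 (AT2G26480), which glucosylates dihydroxybenzoic acids formed from salicylate, was highest in BAP procambium. BAP procambium read 7.20, 6.82 and 6.86, against 4.75 and 4.58 in untreated procambium, at least 3.89-fold apart (adjusted p = 0.0111). That call was lost without either untreated procambium array (0.0591 and 0.0684). BAP cambium read 4.13, 2.63 and 4.21 and BAP transition cambium 4.77, 3.29 and 2.76, so that procambium was at least 3.89-fold above each (adjusted p = 0.000122 and 0.000147). Among the ARR15::GFP arrays only those of BAP procambium reached log2 5, so UGT76D1 passed the filter through the group where it was high. The p-values of comparisons with that group carry this choice. Averaged over zones the BAP effect was 1.46 ± 0.31 (SE, adjusted p = 0.00252), and BAP arrays were above untreated ones without overlap in each zone, though in cambium the nearest arrays read 2.63 with BAP and 2.62 without. RCPG was higher in BAP than in untreated procambium as well (7.60, adjusted p = 3.78e-05), and its part in this difference was not tested. In ARR5::GFP cells, where RCPG was highest, UGT76D1 read 4.87 and 5.74, below every BAP procambium array (adjusted p = 0.0301). That call was lost without BAP procambium replicate 1 or 3 or ARR5::GFP replicate 1 (0.0528 to 0.206).

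UGT71C3 (AT1G07260), a methyl salicylate glucosyltransferase, was higher away from the tip. It read 8.36, 8.39 and 7.92 in BAP cambium, 8.07, 7.52 and 8.31 in BAP transition cambium and 4.98, 5.44 and 5.05 in BAP procambium, without overlap of procambium with the other zones. Cambium was 8.37-fold and transition cambium 7.0-fold above procambium with BAP (adjusted p = 6.24e-05 and 0.000176). Without BAP, cambium read 8.25, 8.25 and 6.42, transition cambium 8.71 and 8.31, and procambium 6.02 and 5.46. Transition cambium was 6.81-fold above procambium (adjusted p = 0.00132), and cambium 3.74-fold (adjusted p = 0.00604, and 0.0604 without untreated procambium replicate 2), or 5.70-fold without untreated cambium replicate 3, which read 6.42. The 12 salicylate genes listed gave no kept probe set. UGT74F1, a salicylate glucosyltransferase, did not reach log2 5.

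Of genes that act on hormones, UGT74D1 (AT2G31750), which glucosylates auxin and oxindole acetic acid, was lower in untreated cambium, at 7.93, 7.85 and 7.22, than in untreated procambium, at 9.44 and 8.77. That was a 2.71-fold decrease (adjusted p = 0.00224) without overlap. BAP procambium read 7.94, 7.98 and 7.59, 2.41-fold lower than untreated procambium (adjusted p = 0.0112, and 0.146 without untreated procambium replicate 1). Averaged over zones UGT74D1 fell by 0.75 with BAP (adjusted p = 0.00392). UGT84B1, another auxin glucosyltransferase, lay within 0.1 of the lowest value on every array. UGT71C5 (AT1G07240) and UGT71B6 glucosylate abscisic acid, and UGT71B6 was not tested. UGT71C5 read 8.86, 9.08 and 9.35 in BAP cambium, against 7.10, 8.28 and 8.44 in BAP procambium, a 2.23-fold difference (adjusted p = 0.0271). It was lost without BAP cambium replicate 2 or 3 or BAP procambium replicate 1 (0.0679 to 0.128).

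Among genes known from stress and pathogen responses, UGT73B4 (AT2G15490) and UGT73B5 (AT2G15480) rose with BAP. UGT73B4 read 8.79, 9.49 and 9.78 in BAP cambium, against 8.22, 8.15 and 8.06 in untreated cambium. In transition cambium it read 10.29, 10.52 and 9.47 with BAP, against 9.01 and 8.17 without, and in procambium 10.13, 11.48 and 11.07, against 10.03 and 8.95. BAP arrays were above untreated arrays in each zone, by 1.37 ± 0.25 on average (SE, adjusted p = 0.00103), though in procambium the nearest arrays read 10.13 with BAP and 10.03 without.

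UGT73B5 behaved likewise, with 8.76, 9.64 and 9.82 in BAP cambium, against 7.96, 8.69 and 8.41 in untreated cambium. It read 10.09, 10.60 and 9.59 in BAP transition cambium, against 9.20 and 8.80 without BAP, and 9.86, 11.17 and 10.26 in BAP procambium, against 9.82 and 8.97. Its mean BAP effect was 1.06 ± 0.24 (SE, adjusted p = 0.00447), again with no overlap in any zone. In procambium, though, the nearest arrays read 9.86 with BAP and 9.82 without. Both mean effects held without any 1 array. In single zones UGT73B5 had adjusted p-values of 0.0824 to 0.139, and UGT73B4 was close to the threshold, at 0.0581 in cambium, 0.051 in transition cambium and 0.0526 in procambium. UGT73B4 passed in all 3 zones without BAP procambium replicate 1 (0.0356, 0.0306 and 0.0163, in that order). Without untreated procambium replicate 1 it passed in cambium and transition cambium (0.0462 and 0.0404). In procambium that run left 1 untreated array, and the difference was 1.94. It also passed in cambium and transition cambium with arrays centred on their medians (0.0423 and 0.0335), and in 1 or 2 zones under 6 other alternatives (0.0369 to 0.0499). UGT73B5 was also 4.55-fold higher in ARR5::GFP cells, at 11.23 and 11.93, than in untreated procambium (adjusted p = 0.00262). UGT73B4 was lower in BAP cambium than in BAP procambium by 2.92-fold (adjusted p = 0.00906).

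UGT73D1 (AT3G53150) was lower in BAP cambium, at 3.38, 3.47 and 4.84, than in BAP procambium, at 6.78, 7.46 and 5.85, by at least 3.24-fold (adjusted p = 0.00628). Untreated cambium, at 3.38, 3.95 and 4.62, was below untreated procambium, at 8.42 and 5.68, by at least 4.13-fold (adjusted p = 0.00704). Without untreated procambium replicate 1 that bound was 1.6-fold (adjusted p = 0.14), and without replicate 2 it was 10.7-fold. The neighbouring gene UGT73C7 (AT3G53160), which glucosylates hydroxycinnamic acids, was at the edge of detection. It read 2.69, 3.17 and 2.82 in BAP cambium, against 6.21, 5.69 and 3.89 in BAP procambium, at least 1.2-fold apart (adjusted p = 0.0221). That was lost without BAP cambium replicate 1 or 3 or BAP procambium replicate 1 or 2 (0.0573 to 0.0965), and the bound was 1.93-fold without BAP procambium replicate 3. BAP procambium replicates 1 and 2 were among the 3 arrays on which UGT73C7 reached log2 5. The p-value against that group carries this choice of the filter. UGT73B1 (AT4G34138) was 6.94-fold higher in BAP transition cambium, at 9.83, 9.86 and 9.57, than in BAP procambium, at 5.70, 7.81 and 7.35 (adjusted p = 0.013), and 4.49-fold without BAP procambium replicate 1 (0.0646).

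UGT80B1 (AT1G43620), a sterol glucosyltransferase and so apart from the family's other acceptors, was 2.15-fold lower in untreated cambium, at 6.99, 6.43 and 7.11, than in untreated procambium, at 8.00 and 7.90. The call (adjusted p = 0.00987) was lost without untreated procambium replicate 1 (0.0565). It read 8.63 and 10.38 in ARR5::GFP cells, 2.95-fold above untreated procambium (adjusted p = 0.0143), which was lost without untreated procambium replicate 2 or ARR5::GFP replicate 2 (0.0724 and 0.247). Without ARR5::GFP replicate 1 or 2 the fold was 5.40 or 1.61.

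UGT88A1 (AT3G16520) separated cambium from procambium. It read 6.45, 6.55 and 5.83 in BAP cambium, 5.98, 5.72 and 7.63 in BAP transition cambium, and 2.17, 2.67 and 2.25 in BAP procambium. Without BAP, cambium read 6.47, 5.79 and 5.42, transition cambium 4.18 and 4.19, and procambium 2.64 and 2.19, and the ARR5::GFP arrays read 2.17 and 2.21. No procambium array came near log2 5, so UGT88A1 passed the filter through cambium and transition cambium alone. The p-values of comparisons with procambium carry this choice. With BAP, cambium was at least 2.43-fold and transition cambium at least 2.73-fold above procambium (adjusted p = 1.35e-05 and 1.3e-05), and without BAP cambium was at least 1.86-fold above (adjusted p = 0.000144). In transition cambium BAP was at least 2.73-fold above untreated (adjusted p = 0.012), a call lost without either untreated transition cambium array (0.067 and 0.0782). Without BAP transition cambium replicate 3, which read 7.63, both bounds for BAP transition cambium were 1.81-fold.

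UGT85A4 (AT1G78270) was higher in BAP cambium, at 9.24, 9.51 and 9.02, and in BAP transition cambium, at 9.34, 8.57 and 9.66, than in BAP procambium, at 6.02, 7.13 and 7.58. The differences were 5.09-fold and 4.85-fold (adjusted p = 0.00606 and 0.00837), and both held without any 1 array. UGT85A2 (AT1G22360) read 12.19 and 11.92 in ARR5::GFP cells, against 10.97 and 9.25 in untreated procambium, 3.86-fold apart (adjusted p = 0.0351). That was lost without either ARR5::GFP array or untreated procambium replicate 2 (0.0965 to 0.341), and the fold was 7.01 or 2.13 without untreated procambium replicate 1 or 2. Its neighbours UGT85A3, UGT85A5 and UGT85A7 were not tested, and close relatives can share signal on a probe set.

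UGT71B1 (AT3G21750) was lower in cambium and transition cambium of untreated roots, at 5.18, 4.15 and 5.18 and at 3.73 and 4.90, than in untreated procambium, at 8.46 and 7.34. Cambium was 8.38-fold lower and transition cambium at least 7.47-fold lower (adjusted p = 0.000275 and 0.000242), and both calls held without any 1 array. In cambium BAP arrays read 6.63, 5.92 and 6.72, 3.01-fold above untreated (adjusted p = 0.0242). That was lost without untreated cambium replicate 2 or BAP cambium replicate 1 or 3 (0.0872 to 0.0888). ARR5::GFP cells, at 5.01 and 4.85, were 4.38-fold below BAP procambium, at 6.79, 7.47 and 6.93 (adjusted p = 0.00301), and 7.84-fold below untreated procambium (adjusted p = 0.000461). Other members were called lower in ARR5::GFP cells than in untreated procambium under alternatives alone. UGT73C7 (-2.11, adjusted p = 0.0728) passed in the fit of these groups alone (0.0298), with 1 numbering of the replicate block (0.0228) and without BAP transition cambium replicate 2 (0.0357). The others were UGT76E2 without untreated procambium replicate 1 (-1.90) and UGT74D1 without ARR5::GFP replicate 1 (-1.48), each with 1 array left in that group.

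UGT71B5 (AT4G15280) was close to one low value, 3.75 to 3.88, on every ARR15::GFP array of cambium and transition cambium and of untreated procambium. It read 6.70 and 7.48 in ARR5::GFP cells and 4.71, 5.57 and 5.87 in BAP procambium. ARR5::GFP cells were at least 4.27-fold above untreated procambium (adjusted p = 1.43e-05) and 3.27-fold above BAP procambium (adjusted p = 0.00185). BAP procambium was at least 1.3-fold above untreated procambium (adjusted p = 0.00713, and 0.0557 without untreated procambium replicate 1). Among the ARR15::GFP arrays UGT71B5 reached log2 5 only on BAP procambium replicates 2 and 3, so it passed the filter through the group where it was high. Without either of these arrays it was not tested in the ARR15::GFP fit, and the p-values of comparisons with BAP procambium carry this choice. The groups in which UGT71B5 was above its low value were those in which RCPG was above log2 10. RCPG also read 7.65 on BAP transition cambium replicate 2, where UGT71B5 stayed at its low value. The part of root cap cells was not tested.

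UGT87A2 (AT2G30140), which affects flowering time, read 7.81, 9.53 and 9.38 in BAP procambium, against 7.30 and 6.41 in untreated procambium, a 4.13-fold difference (adjusted p = 0.00616). It was lost without untreated procambium replicate 2 (0.0777). ARR5::GFP cells, at 9.77 and 8.85, were 5.46-fold above untreated procambium (adjusted p = 0.0016), where RCPG and EXPA7 were higher too, as given above.

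The remaining 3 tested genes, UGT71C2, UGT71C4 and UGT76E2, were called in no comparison. UGT71C4 read 7.74 to 9.92 over all 18 arrays, and its neighbour UGT71C3 differed between zones. UGT76E2 read 3.84 to 6.56 and UGT71C2 3.43 to 6.07. Leaving out untreated procambium replicate 1 left 1 array of that group. UGT76E2 then differed from it by -1.69 in untreated cambium and -1.89 in untreated transition cambium. Its mean BAP effect was -0.81 in that run, and it passed without BAP procambium replicate 1 (-0.73, adjusted p = 0.0343). UGT71C2 read 6.07 and 3.70 in untreated procambium and 3.45 to 3.97 in untreated cambium. Without untreated procambium replicate 2, at 3.70, 1 array was left. The differences from it were -2.35 in untreated cambium and -2.07 in untreated transition cambium.

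Per zone, BAP against untreated gave 4 higher and 0 lower members in cambium (14.3%, beside 14.9% of all probe sets, 7.71% higher and 7.15% lower), and 3 higher and 0 lower in transition cambium (10.7%, beside 9.40%, 4.70% in each direction). In procambium 3 were higher and 2 lower (17.9%, beside 14.1%, 7.61% higher and 6.44% lower). By the mean over the 3 zones, 12 were higher and 2 lower (50.0%, beside 30.2% of all probe sets, of which 15.2% were higher and 15.0% lower). The 12 were UGT84A4, UGT72E1, UGT72E2, UGT76D1, UGT72E3, UGT73B4, UGT78D1, UGT73B5, UGT74B1, UGT88A1, UGT87A2 and UGT71B5, from 1.90 for UGT84A4 to 0.54 for UGT71B5, and the others were UGT74D1 and UGT78D2. A mean effect need not hold in each zone. UGT71B5 had a mean of 3.82 in cambium with and without BAP, and UGT84A4 and UGT72E3 had lower means with BAP in procambium. Of these 14 mean effects, 8 held without any 1 array, and those of UGT71B5, UGT72E1, UGT74B1, UGT78D2, UGT87A2 and UGT88A1 did not, with adjusted p-values up to 0.128. The median mean-BAP effect over the 28 members was 0.51, against 0.00 over all probe sets. Without BAP procambium replicate 1, BAP against untreated gave 6 calls in transition cambium and 10 in procambium, and the F test gave 5, adding UGT71B5, UGT72E1 and UGT87A2. Calls in cambium fell to 2 without BAP cambium replicate 1 or 3, and in transition cambium to 1 without either untreated array. In procambium they fell to 3 without untreated procambium replicate 1, where UGT87A2 alone of the 5 stayed called and UGT74B1 and UGT73B4 were added, and 0 of the 5 held without any 1 array. By the mean effect they fell to 9 without untreated procambium replicate 2.

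**Figure D3:**
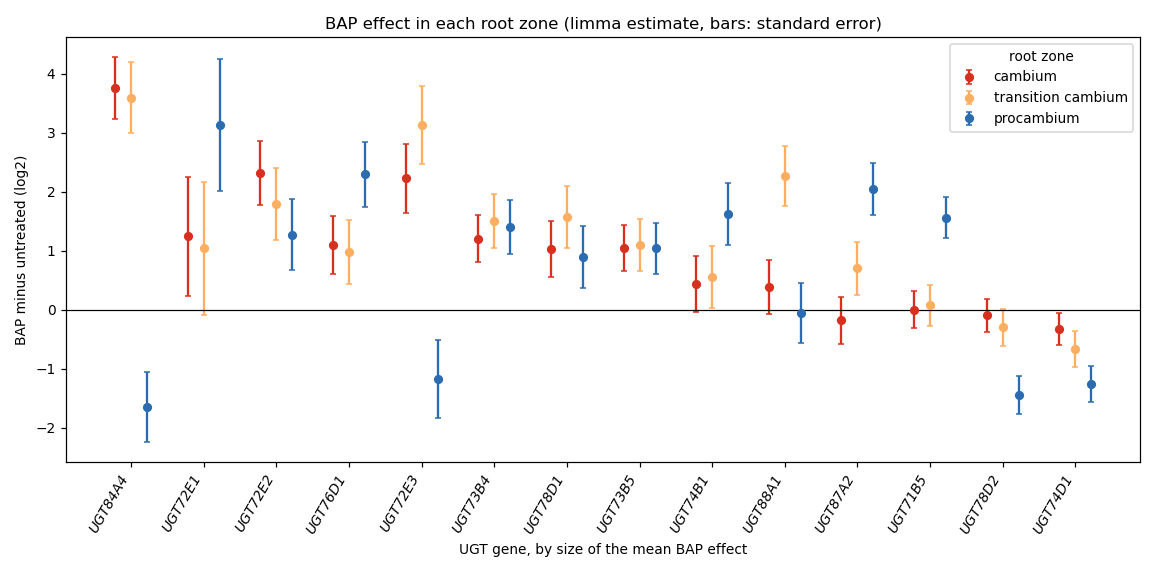
BAP effect (log2, BAP minus untreated, limma estimate with its standard error) in cambium, transition cambium and procambium for the 14 UGT genes with a called mean effect, ordered by that mean. UGT84A4 and UGT72E3 lie above 0 in cambium and transition cambium and below 0 in procambium.

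Against untreated procambium, 8 members were higher and 1 was lower in ARR5::GFP cells (32.1%, beside 31.5% of all 13465 probe sets kept over 18 arrays, 14.0% higher and 17.5% lower). Against BAP procambium 6 were higher and 3 lower (32.1%, beside 31.4%, 13.6% higher and 17.8% lower). Both comparisons use the same ARR5::GFP arrays, and the reporter, age and dissection differ with the group and cannot be told apart. Calls against BAP procambium fell to 4 without BAP procambium replicate 1 or ARR5::GFP replicate 1, and to 5 without ARR5::GFP replicate 2. In untreated transition cambium against procambium, calls fell to 8 without either transition cambium array.

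Over the 7 group means, 27 tested members with a highest mean of at least log2 5 and a span of at least 1 gave 351 pairs, whose median Pearson r was -0.03. The most alike were UGT71C3 and UGT85A4 (r = 0.984), UGT78D1 and UGT88A1 (0.973) and UGT73B1 and UGT85A4 (0.971). The least alike were UGT71C3 and UGT76B1 (-0.964), UGT73D1 and UGT78D1 (-0.955) and UGT74B1 and UGT76B1 (-0.933). These values describe 7 points that come from shared arrays.

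The members form 12 sets of neighbours with at most 1 other protein-coding gene between them, by the reference gene order. UGT73B4 and UGT73B5 had like group means (r = 0.939 over the group means), as did UGT71C3 and UGT71C5 (0.919). UGT71C3 and UGT71C4 were less alike (0.594), and UGT73C7 and UGT73D1 hardly (0.156). UGT72E1, UGT72E2 and UGT72E3 are not neighbours, and UGT72E1 and UGT72E2 (0.82) were more alike than UGT72E1 and UGT72E3 (0.0519). Cross-reaction between neighbours of like sequence was not tested.

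**Figure D4:**
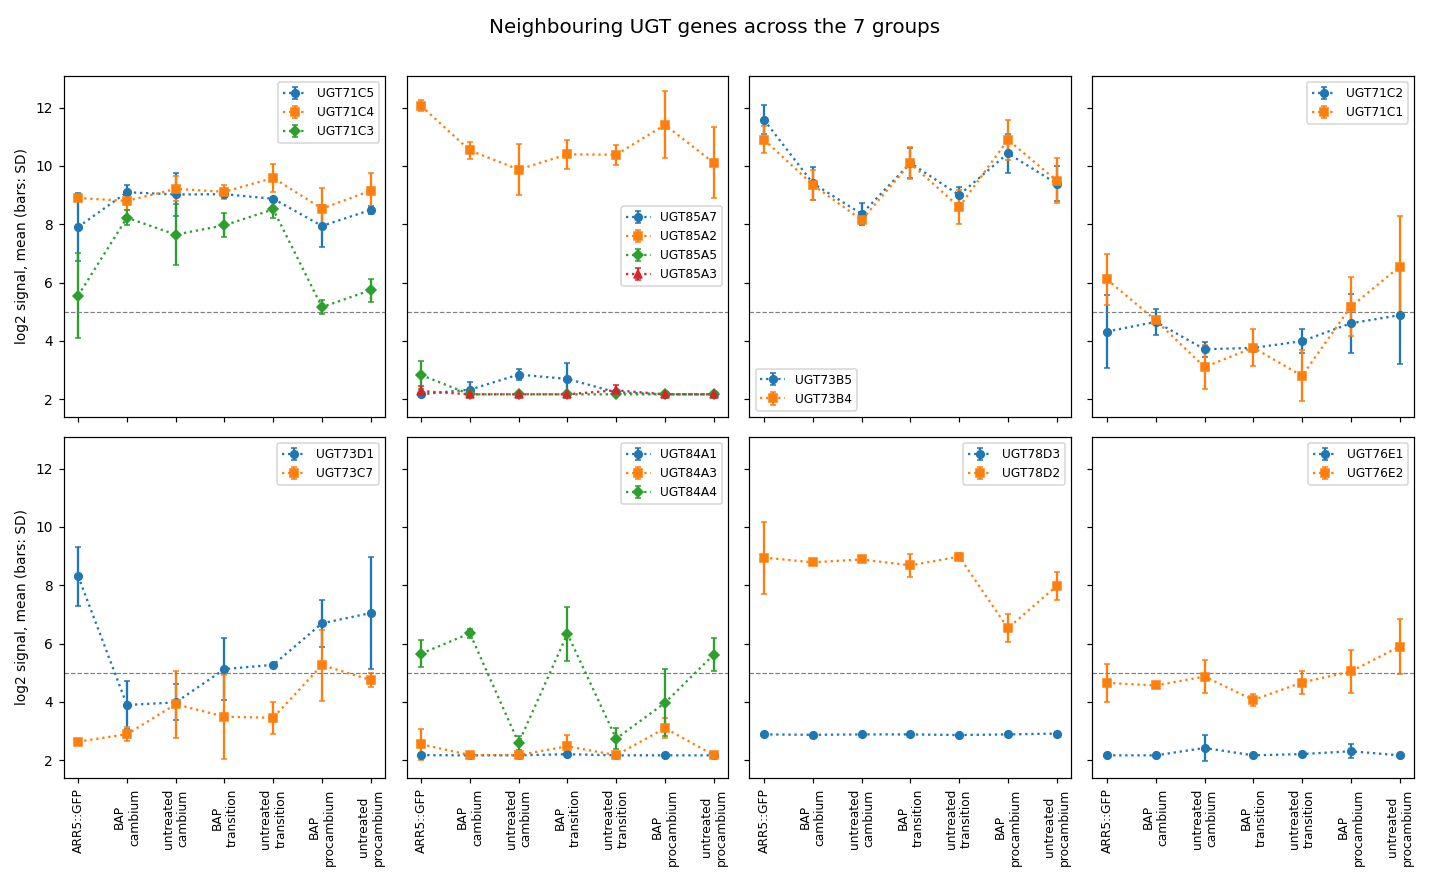
Mean log2 signal (bars: SD over 2 or 3 arrays) of neighbouring UGT genes in the 7 groups, one panel per set with at least 1 tested gene; the dashed line is log2 5. UGT73B4 and UGT73B5 follow each other across the groups, while UGT84A4 varies above UGT84A1 and UGT84A3, which stay below log2 5.

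Of 89 genes in 5 lists of the pathways that feed UGTs, 7 could be matched to a probe set, and 4 of these passed the filter, CHIL, HCT, CCR2 and BCAT4. None of the 26 genes of UDP-sugar supply was among them.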

How the data were processed

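RNA was amplified in a two-cycle protocol and hybridised to Affymetrix ATH1 arrays, per the labels' protocols. GCRMA produced the deposited log2 values, per the submitters' processing notes, with its version and the set of arrays normalized jointly not given in the sources used here. Dim probe sets lie near a common low value, and folds against them depend on GCRMA's background model. Where the dimmer group stayed below log2 5 on all its arrays, the brighter mean over log2 5 is given as "at least N-fold", with no fold where that is under 1.

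After leaving out 64 controls, probe sets with 2 or more arrays at log2 5 were tested, 13202 of them for the 16 ARR15::GFP arrays and 13465 for the whole set of 18. Group means were fitted with limma 3.58.1 in R 4.3.3 (lmFit, eBayes with an intensity trend; 10 and 11 residual degrees of freedom), and p-values were adjusted over all probe sets kept. The fit was tested on simulated data. Arrays give no read depth, and their number limits the precision. Labels call arrays of a group biological replicates and give no batch. In 1 untreated procambium title the numbers disagree (3 and 2), and 2 was used. Whether the same replicate numbers pair arrays was left undecided. Over 48 same-numbered pairs, deviations from group means correlated at -0.523 to 0.278 (median 0.02), and 7 pairs exceeded 0.1. In groups of 2 arrays the deviations mirror each other, 1 number is in dispute, and the pairs include ARR5::GFP arrays of other seedlings. This check therefore cannot exclude pairing.

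Members and lists were chosen with earlier results of these data known. Every member may be named. Array values and tests are given for called members whose groups differ by at least 1 without overlap, at most the 8 largest in each direction per comparison, and for called mean effects. Alternatives were 2 scalings, 2 filters, no trend, fits of the compared groups alone, a replicate block, and leaving out each array.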

Additional observations from a re-analysis of the deposited data

Results flagged for a closer look

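The BAP effect differed between the zones for UGT84A4, by limma's F test over the 16 ARR15::GFP arrays (adjusted p = 0.00141), with effects of 3.76 in cambium, 3.60 in transition cambium and -1.66 in procambium. It differed likewise for UGT72E3 (adjusted p = 0.0199), with effects of 2.22, 3.14 and -1.18 in that order. In procambium neither effect passed on its own (adjusted p = 0.0804 and 0.276), and that of UGT84A4 did without BAP procambium replicate 2 (-2.14, adjusted p = 0.0324). On the BAP procambium arrays, replicate 1 was lowest for both genes, at 2.70 and 2.36.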

How the results depend on the processing

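Of 106 called pairs of a member and a comparison, 57 were lost in no run without 1 array, and no pair changed direction under any alternative run. UGT71B5 did not pass the filter in the ARR15::GFP fit without BAP procambium replicate 2 or 3. Its calls for BAP cambium and BAP transition cambium against BAP procambium are among the 57, though not tested in those runs. Leaving out 1 array moved 31 of 104 called differences, of 17 genes, by over 1.5 times. Leaving out each array in turn gave 11 to 16 called members for untreated cambium against procambium, 8 to 15 for untreated transition cambium against procambium, 13 to 16 and 12 to 16 for the same comparisons with BAP, and 0 to 1 for cambium against transition cambium in either treatment. It gave 2 to 6 for BAP in cambium, 1 to 6 in transition cambium, 3 to 10 in procambium, 9 to 16 for the mean effect and 2 to 5 for the F test. The ARR5::GFP comparisons gave 6 to 12 against untreated procambium and 4 to 10 against BAP procambium.

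Fits of the compared groups alone, which have fewer arrays, gave 10 calls for untreated cambium and 8 for untreated transition cambium against procambium, 1 for BAP in procambium, and 3 and 1 for ARR5::GFP against untreated and BAP procambium; they give no value for the mean effect and the F test. Without a filter, BAP in cambium gave 2 calls and ARR5::GFP against BAP procambium 5; the cause was not tested. Of the genes not kept, UGT74F1, UGT84A3 and UGT85A5 then gave 10 calls. Keeping probe sets with 3 arrays at log2 6 left 1 call in the F test.

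Centring each array on its median moved the median difference over all probe sets by -0.174 for untreated cambium and -0.209 for untreated transition cambium against procambium, and by 0.117 for ARR5::GFP against BAP procambium. With the title's replicate number as a block, 94 of the 106 calls remained and 12 were lost, with 13 called members for untreated cambium and 11 for untreated transition cambium against procambium, 8 in each ARR5::GFP comparison and 11 for the mean effect. The lowest-mean probe set per gene could not be run, since each gene has 1 probe set. The floor of the values limits every fold against a dim group.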
